A study of Mus musculus with 25 samples.

Results

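At postnatal day 2 (P2) the mouse retina holds cells that still divide beside neurons that have already left the cell cycle. Their RNA was compared in 2 libraries of GFP+ retinal cells, labelled retinal progenitor cells (RPCs), and 2 libraries of GFP- retinal cells, labelled post-mitotic retinal cells. All 4 came from CD1 mice at P2, cells were separated by green fluorescent protein (GFP), and the labels name no treatment and no reporter gene that carries GFP. They are part of 25 libraries, 12 of RNA and 13 of open chromatin, of sorted CD1 retina from several ages. Of these, the 2 libraries each of GFP+ and GFP- RNA at embryonic day 18 (E18) and the 2 open chromatin libraries of GFP+ cells at P2 were also used. The 2 GFP+ and 2 GFP- RNA libraries of embryonic day 14 (E14) entered only 1 alternative fit, on all 12 RNA libraries. Genes were included where at least 2 of the 4 P2 RNA libraries reached 1 FPKM (fragments scaled to transcript length and to library size), which left 12844 of the 28446 gene symbols in the table. The labels do not say whether the replicates are separate animals. The p-values therefore reflect the scatter among these particular libraries, and that scatter may be technical.

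Retinal progenitors are multipotent, and they make the cell types of the retina in an order that is shared among vertebrates. Ganglion cells, horizontal cells, cones and many amacrine cells are made before birth in the mouse, and rods, bipolar cells and Mueller glia are the main products around and after birth. Progenitors are kept dividing by Notch signalling and by transcription factors of the eye field, and late progenitors share many genes with the Mueller glia that they give rise to.

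The labels were checked against 12 progenitor markers and 20 markers of post-mitotic cells. Of the progenitor markers, 8 of the 12 tested were called higher in GFP+ libraries and 0 lower, at a Benjamini-Hochberg adjusted p below 0.05 in limma. Hes1, Fgf15, Sfrp2 and Rax were not called. Of the markers of post-mitotic cells 17 were tested, and 15 were called lower in GFP+ libraries and 0 higher. Onecut1 and Prox1 were not called, and Lhx1, Pou4f2 and Sncg did not reach 1 FPKM in 2 libraries. Each sort also held RNA of the other kind. Summed over the list of 50 mitosis and cytokinesis genes, GFP+ replicates 1 and 2 held 3349 and 4331 FPKM, and GFP- replicates 1 and 2 held 1654 and 1026 FPKM. Thus the GFP- libraries kept 43.1% and 26.7% of the mean GFP+ level of mitotic RNA. Summed over 20 genes of rod phototransduction, leaving out Gnb1, which many cells use, GFP+ libraries held 52.1 and 31.6 FPKM, against 695.0 and 1696 FPKM in GFP- libraries.

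The replicates were not alike in this respect, and that bears on every count given here. GFP- replicate 1 stood closer to the GFP+ libraries than GFP- replicate 2 did in cell cycle and rod genes. It held more cell cycle RNA and less rod RNA. In amacrine and ganglion cell genes it stood further away. There it held a summed 1129 and 448.2 FPKM, against 940.2 and 379.0 FPKM in GFP- replicate 2. GFP+ replicate 1 stood closer to the GFP- libraries than GFP+ replicate 2 did in cell cycle genes and in photoreceptor transcription factors. Among the genes called higher, the median log2 difference was 0.67 between the libraries numbered 1 and 0.99 between those numbered 2. Among the genes called lower it was -1.13 between the libraries numbered 1 and -1.36 between those numbered 2. Across the genes tested, the Pearson correlation of log2 values between replicates was 0.985 for GFP+ and 0.974 for GFP- libraries, where genes are not independent replicates. Summed FPKM lay between 383872 and 428055 per library, and absolute read depth is unknown. The smallest steps between low FPKM values put the depth of GFP+ replicate 2 at 0.86, of GFP- replicate 1 at 0.71 and of GFP- replicate 2 at 0.84 of that of GFP+ replicate 1. In RNA of sorted pools, fewer cells of a type and less RNA per cell cannot be told apart.

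**Figure D1:**
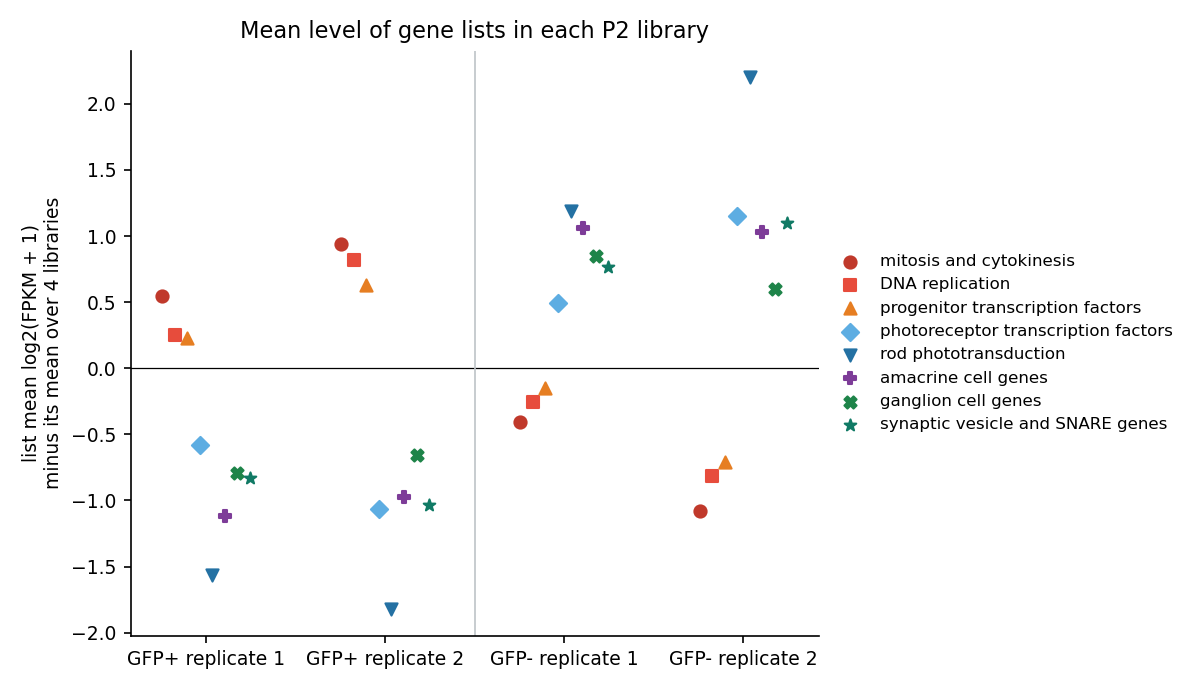
Mean log2(FPKM + 1) of the tested members of 8 gene lists in each of the 4 P2 libraries, minus the mean of the list over the 4 libraries. The 3 proliferation and progenitor lists lie above 0 in both GFP+ libraries and below 0 in both GFP- libraries, the 5 neuronal lists lie the other way, and the spread between lists is wider in the libraries numbered 2, except for amacrine and ganglion cell genes.

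Across all genes, 3229 of 12844 differed between the sorts, which is 25.1% of the genes tested. Of these, 1462 (11.4%) were higher and 1767 (13.8%) lower in GFP+ libraries, and 5094 had an unadjusted p below 0.05. Of the genes tested, 618 reached 1 FPKM in both GFP- libraries and in neither GFP+ library, so they had passed the filter where they are high, and 126 had passed through the GFP+ libraries alone. Without the 618, the number of lower genes was 1244. Genes that rose did so by small steps and in large numbers. Their median log2 fold change was 0.87, 532 passed a 2-fold and 1 a 4-fold difference. Genes that fell did so over a far wider range. Their median log2 fold change was -1.25, 1173 passed a 2-fold difference, 406 a 4-fold, 123 an 8-fold and 27 a 16-fold difference, down to -5.28. All fold changes are differences of log2(FPKM + 1), given with their standard error (SE), and the added 1 understates the change of genes at low levels. The counts rest on few libraries. Without GFP+ replicate 1 they were 777 higher and 1116 lower, without GFP+ replicate 2 they were 227 and 811, without GFP- replicate 1 they were 1224 and 2152, and without GFP- replicate 2 they were 477 and 1163. The share of calls that were higher was 45.3% as deposited. It was 54.1% under quantile scaling, where 1735 genes were higher and 1472 lower, and 39.6% under median-of-ratios scaling. It was 35% when histone, mitochondrial and abundant noncoding genes were left out of the totals. No called gene changed sign without 1 of the 4 libraries or under the other scalings.

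**Figure D2:**
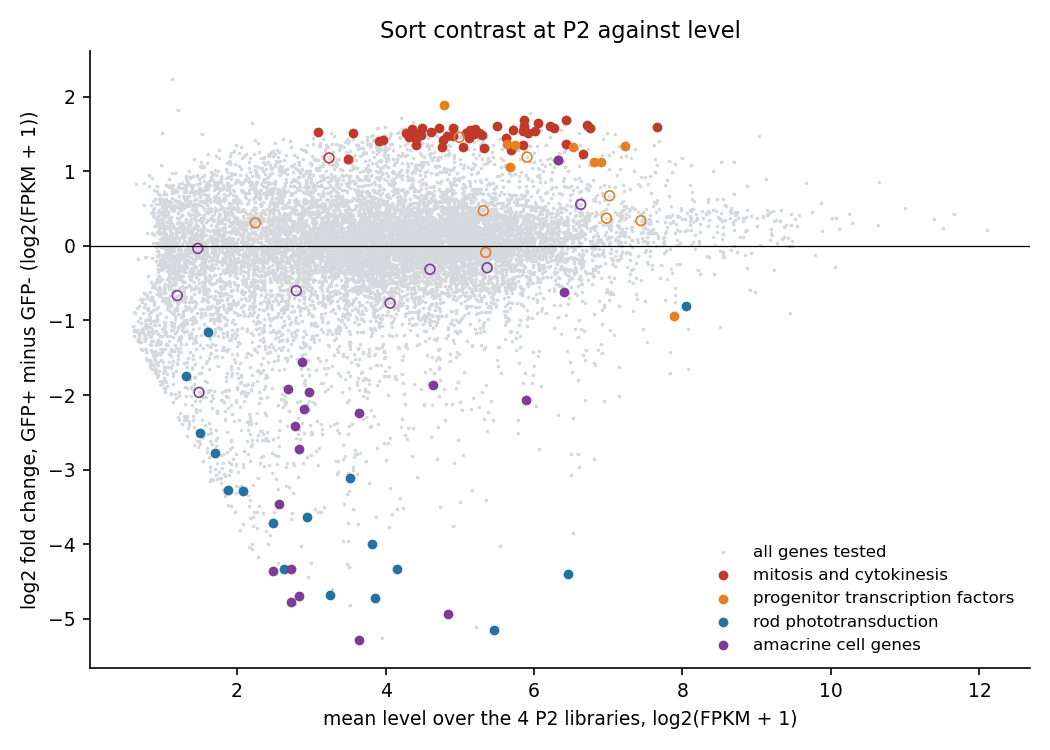
Log2 fold change between GFP+ and GFP- libraries at P2 (y axis) against the mean level over the 4 libraries (x axis), for 12844 genes in grey and 4 gene lists in colour. Filled points passed an adjusted p of 0.05 and open points did not. Mitosis genes form a narrow band between 1.16 and 1.69, and rod and amacrine genes spread down to -5.28.

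Cell cycle genes led the rises among genes at a moderate level or above. The genes ranked here were called, did not overlap between the sorts, reached a mean of 5 FPKM in the higher sort and are not predicted genes. Of the 12 such genes with the highest log2 fold changes, 10 serve mitosis. They are Ube2c, Aurkb, Kif18b, Cdc20, Cdk1, Cdca3, Birc5, Nusap1, Ccnb1 and Fam83d. The others were Zic1, a zinc finger factor of progenitors, and Aldh1a1, an enzyme that makes retinoic acid. Zic1 stood at 52.8 and 51.1 FPKM in GFP+ libraries, against 14.8 and 12 FPKM in GFP- libraries (log2 fold change 1.89 ± 0.16, adjusted p = 0.00125). Aldh1a1 stood at 49.8 and 56.9 FPKM in GFP+ libraries, against 21.3 and 13.3 FPKM in GFP- libraries (log2 fold change 1.6 ± 0.23, adjusted p = 0.00765). Both GFP+ libraries lay above both GFP- libraries for each gene, by more than the replicates differed. Counted in FPKM rather than in folds, the largest rises were in abundant genes. They were Ckb, brain creatine kinase, Ccnd1, Tubb5, a tubulin, Rplp1 of the ribosome, Eno1 of glycolysis and H2afz, a replacement histone. Ckb stood at 2193 and 2097 FPKM in GFP+ libraries, against 1099.7 and 1283 FPKM in GFP- libraries (log2 fold change 0.85 ± 0.13, adjusted p = 0.00962). Birc5, Nusap1, Tubb5 and H2afz lost their calls without GFP+ replicate 2 (adjusted p = 0.0586 to 0.0973). Ckb lost its call without GFP- replicate 1 (adjusted p = 0.130). Ckb, Tubb5 and H2afz lost their calls without GFP- replicate 2 (adjusted p = 0.0573 to 0.146).

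Neuronal genes led the falls under the same conditions. Among the 12 genes with the lowest log2 fold changes were the photoreceptor genes Opn1sw, Sag, Rd3l and Gngt1. They also held the amacrine genes Tfap2a, Tfap2b, Gad1 and Lamp5, and Crabp1, Dlg2 and Ina. Crabp1, a carrier of retinoic acid inside cells, stood at 3.87 and 7.28 FPKM in GFP+ libraries, against 253 and 190.0 FPKM in GFP- libraries (log2 fold change -5.12 ± 0.28, adjusted p = 0.000578). Dlg2, a scaffold protein of synapses, stood at 0.896 and 1.47 FPKM in GFP+ libraries, against 66.7 and 53.3 FPKM in GFP- libraries (log2 fold change -4.81 ± 0.21, adjusted p = 0.000578). In both, the GFP- libraries were far above the GFP+ libraries. Counted in FPKM, the largest falls were in Nnat, a membrane protein of young neurons, Pdc, Nr2e3, Meg3, a long noncoding RNA, Atp1b2, a sodium pump subunit, and Sag. Nnat stood at 628 and 417 FPKM in GFP+ libraries, against 1134 and 809 FPKM in GFP- libraries (log2 fold change -0.90 ± 0.25, adjusted p = 0.0445), and Meg3 at 189 and 121 FPKM in GFP+ libraries, against 351 and 646 FPKM in GFP- libraries (log2 fold change -1.65 ± 0.33, adjusted p = 0.0189). Rd3l, Gad1 and Lamp5 lay below 1 FPKM in both GFP+ libraries and so entered the test through the GFP- libraries alone. Nnat, Meg3 and Atp1b2 lost their calls without GFP+ replicate 2 (adjusted p = 0.0637 to 0.179). Nnat lost its call without GFP- replicate 1 (adjusted p = 0.159). Nnat and Meg3 lost their calls without GFP- replicate 2 (adjusted p = 0.0699 and 0.0541).

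Mitosis and cytokinesis genes rose almost as a block. Of 50 tested, 49 were higher in GFP+ libraries and 0 lower, with a median log2 fold change of 1.51 against 0.02 over all genes. The standard deviation of the 50 log2 values was 0.12, so members at very different levels moved by nearly the same factor. Cdk1, the kinase that drives entry into mitosis, stood at 165 and 204 FPKM in GFP+ libraries, against 74.4 and 46.2 FPKM in GFP- libraries (log2 fold change 1.63 ± 0.24, adjusted p = 0.00837). Cdc20, which activates the anaphase-promoting complex, stood at 101 and 133 FPKM in GFP+ libraries, against 44.1 and 30.1 FPKM in GFP- libraries (log2 fold change 1.65 ± 0.22, adjusted p = 0.00654). Ube2c, the ubiquitin-conjugating enzyme of that complex, stood at 133 and 179 FPKM in GFP+ libraries, against 64.9 and 34.1 FPKM in GFP- libraries (log2 fold change 1.69 ± 0.31, adjusted p = 0.0150). In each of the 3, GFP- replicate 1 was the higher of the GFP- libraries and GFP+ replicate 2 the higher of the GFP+ libraries, and the sorts did not overlap. Top2a, the topoisomerase that untangles chromosomes, reached 302 and 402 FPKM in GFP+ libraries, against 147 and 89.1 FPKM in GFP- libraries (log2 fold change 1.6 ± 0.26, adjusted p = 0.0112). Mki67, a marker of dividing cells, had a log2 fold change of 1.51 ± 0.22 with adjusted p = 0.00815. Prc1, which bundles the microtubules of the central spindle, had 1.58 ± 0.20 with adjusted p = 0.00513, Foxm1, a transcription factor of mitotic genes, had 1.54 ± 0.22 with adjusted p = 0.00712, and Ncapd2, a condensin subunit, had 1.37 ± 0.17 with adjusted p = 0.00528. Mybl2, a partner of the complex that switches on these genes, was the member not called, at 1.18 ± 0.34 with adjusted p = 0.0501. With the replicate number as a block, 1 of the 50 was called. The fit without GFP+ replicate 2 called 20 of the 50, a fit with no filter on low values called 19, and the fit on all 12 RNA libraries called 0. Ube2c lost its call without GFP+ replicate 2 (adjusted p = 0.0571).

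Promoters of this group are shown because its members moved together. The 250 bases before the start of 3 of them, from RefSeq on GRCm38.p6, are printed 5′ to 3′ on the strand of the gene. Capitals mark the letters TTTGAA, the core of the cell cycle genes homology region (CHR), and CCAAT, the CCAAT box, on either strand. The 3 genes were picked after the matches were seen.
Cdk1 (chr10:69352913-69353162, minus strand): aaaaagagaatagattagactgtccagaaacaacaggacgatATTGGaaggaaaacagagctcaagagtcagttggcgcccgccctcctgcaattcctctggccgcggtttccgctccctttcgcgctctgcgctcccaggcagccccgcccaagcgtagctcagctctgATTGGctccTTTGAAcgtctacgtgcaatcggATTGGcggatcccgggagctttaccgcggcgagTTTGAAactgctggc
Cdc20 (chr4:118437344-118437593, minus strand): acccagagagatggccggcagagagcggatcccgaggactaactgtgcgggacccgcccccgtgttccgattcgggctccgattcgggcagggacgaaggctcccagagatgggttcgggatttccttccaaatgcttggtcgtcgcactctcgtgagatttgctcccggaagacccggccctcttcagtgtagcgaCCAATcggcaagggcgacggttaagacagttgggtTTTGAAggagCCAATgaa
Ube2c (chr2:164769679-164769928, plus strand): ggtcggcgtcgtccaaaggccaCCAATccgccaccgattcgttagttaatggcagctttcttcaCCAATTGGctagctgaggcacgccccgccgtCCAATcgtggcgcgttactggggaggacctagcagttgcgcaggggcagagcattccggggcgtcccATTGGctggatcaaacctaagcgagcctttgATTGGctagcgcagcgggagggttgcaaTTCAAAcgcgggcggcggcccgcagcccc
The Cdk1 window held TTTGAA 71 and 15 bases before the start and Cdc20 held it 18 bases before, counted to the first base of the match, and Ube2c held its reverse complement 29 bases before. In the window of 250 bases before to 50 after the start, TTTGAA was found on either strand in 73.8% of 42 promoters of the tested mitosis genes, against 17.3% of 1386 promoters of all genes called higher, 9.56% of 1831 promoters of genes called lower and 17.9% of all 32851 promoters. Among 12327 promoters of all genes tested the share was 11.3%. CCAAT was found in 71.4% of the mitosis promoters, in 37.8% of promoters of genes tested and in 37.4% of all promoters. On the gene strand alone it was found in 47.6% of the mitosis promoters and 21.1% of all promoters. For 37 promoters of DNA replication genes, the letters TTTNGCG, a core of the E2F site, were found in 37.8%, against 6.98% of promoters of genes tested and 4.22% of all promoters. TTTGAA was found in 10.8% of the 37. RefSeq promoters were matched by symbol for 9535 of the 12844 genes (74.2%). A match is a string of letters, and these shares describe the windows only.

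DNA replication genes rose by less and less uniformly. Of 41 tested, 29 were higher and 0 lower, with a median log2 fold change of 1.09. Mcm2, a subunit of the replicative helicase, stood at 51.1 and 82.2 FPKM in GFP+ libraries, against 32.6 and 19.5 FPKM in GFP- libraries (log2 fold change 1.33 ± 0.31, adjusted p = 0.0277). Pcna, the sliding clamp of DNA polymerase, stood at 183 and 256 FPKM in GFP+ libraries, against 121 and 73.4 FPKM in GFP- libraries (log2 fold change 1.19 ± 0.27, adjusted p = 0.0261). Rrm1 and Rrm2 form the ribonucleotide reductase that supplies deoxynucleotides. Rrm1 had a log2 fold change of 1.12 ± 0.18 with adjusted p = 0.0111 and Rrm2 of 1.58 ± 0.27 with adjusted p = 0.0130. The sorts did not overlap for these genes, but the distance between them was much shorter for the libraries numbered 1 than for those numbered 2. Among the 12 not called were Mcm7 at 0.61 ± 0.17 with adjusted p = 0.0507 and Cdc45 at 1.35 ± 0.39 with adjusted p = 0.0510. The count depended on single libraries, with 0 called without GFP+ replicate 2 and 3 without GFP- replicate 2. It depended on the scaling and the filter as well, with 12 called under median-of-ratios scaling, 16 under quantile scaling, 10 with the totals without abundant genes, 1 with no filter on low values and 0 in the fit on all 12 RNA libraries. With the replicate number as a block, 0 were called. Mcm2, Pcna, Rrm1 and Rrm2 lost their calls without GFP+ replicate 2 (adjusted p = 0.0528 to 0.113). Mcm2 and Pcna lost their calls without GFP- replicate 2 (adjusted p = 0.0936 and 0.0792).

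Genes that govern entry into S phase moved in more than 1 way. Of 21 tested, 15 were higher and 1 was lower. With the replicate number as a block, 1 was higher and 0 were lower. Ccnd1, the D-type cyclin of the retina, stood at 730.0 and 1029.8 FPKM in GFP+ libraries, against 413 and 237 FPKM in GFP- libraries (log2 fold change 1.47 ± 0.29, adjusted p = 0.0187). Ccnd2, its close relative, was low everywhere, entered the test through the GFP- libraries alone and was lower in GFP+ libraries, with 0.396 and 0.463 FPKM in GFP+ libraries, against 1.39 and 1.19 FPKM in GFP- libraries (log2 fold change -0.68 ± 0.18, adjusted p = 0.0373). Cdkn2c, which encodes the inhibitor p18, also rose, with 50.8 and 54.1 FPKM in GFP+ libraries, against 19.5 and 15.6 FPKM in GFP- libraries (log2 fold change 1.54 ± 0.16, adjusted p = 0.00270). Cdk6, a partner of D-type cyclins, had 1.05 ± 0.17 with adjusted p = 0.0100, Ccne1, a cyclin of S phase entry, had 1.20 ± 0.25 with adjusted p = 0.0211 and E2f1, a factor of S phase genes, had 1.36 ± 0.29 with adjusted p = 0.0220. Cdkn1a, which encodes the inhibitor p21, also rose, at 1.47 ± 0.29 with adjusted p = 0.0189. The inhibitors most linked to cell cycle exit in the retina were not called. Cdkn1b (p27) stood at 162 and 124 FPKM in GFP+ libraries, against 94.3 and 112 FPKM in GFP- libraries and Cdkn1c (p57) at 15.1 and 7.78 FPKM in GFP+ libraries, against 16.3 and 18.2 FPKM in GFP- libraries, with log2 fold changes of 0.46 ± 0.17 with adjusted p = 0.102 and -0.62 ± 0.29 with adjusted p = 0.175. The higher count was 1 without GFP+ replicate 2 and 2 without GFP- replicate 2. Ccnd2 lost its call without GFP+ replicate 1 (adjusted p = 0.195). Ccnd1, Ccnd2, Cdk6, Ccne1, E2f1 and Cdkn1a lost their calls without GFP+ replicate 2 (adjusted p = 0.0668 to 0.201). Ccnd1, Ccnd2, Ccne1, E2f1 and Cdkn1a lost their calls without GFP- replicate 2 (adjusted p = 0.0510 to 0.0868).

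Most transcription factors of progenitors had higher levels in GFP+ libraries, but not all of these were called. Of 18 tested, 16 had a log2 fold change above 0, and the median was 1.12. Of the 18, 9 were called higher and 1 lower. Nr2e1, an orphan nuclear receptor of progenitors, stood at 70.3 and 87.5 FPKM in GFP+ libraries, against 34.4 and 26 FPKM in GFP- libraries (log2 fold change 1.36 ± 0.19, adjusted p = 0.00679). Sox8 and Sox9 are SoxE factors that later mark Mueller glia. Sox8 had 1.32 ± 0.19 with adjusted p = 0.00815, Sox9 had 1.06 ± 0.17 with adjusted p = 0.0103 and Lhx2, an eye field factor, had 1.12 ± 0.17 with adjusted p = 0.00915. Sox2, needed for neural competence, had 1.16 ± 0.27 with adjusted p = 0.0271. The number called higher was 5 without GFP+ replicate 2 and 6 without GFP- replicate 2. Pax6, which amacrine, horizontal and ganglion cells keep after they exit the cycle, went the other way. It stood at 151 and 189 FPKM in GFP+ libraries, against 405 and 260.4 FPKM in GFP- libraries (log2 fold change -0.94 ± 0.23, adjusted p = 0.0338), with both GFP+ libraries below both GFP- libraries. Rax and Six3, eye field factors, were not called. Rax stood at 188 and 201 FPKM in GFP+ libraries, against 150.2 and 157 FPKM in GFP- libraries (0.34 ± 0.12, adjusted p = 0.0821) and Six3 at 137 and 147 FPKM in GFP+ libraries, against 113 and 106 FPKM in GFP- libraries (0.37 ± 0.12, adjusted p = 0.0699). Pax6 lost its call without GFP+ replicate 1 (adjusted p = 0.110) and without GFP- replicate 1 (adjusted p = 0.0671). Sox9, Sox2 and Pax6 lost their calls without GFP+ replicate 2 (adjusted p = 0.0625 to 0.117). Sox2 lost its call without GFP- replicate 2 (adjusted p = 0.0563).

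Genes that late progenitors share with Mueller glia were higher at P2, with 14 of 23 tested called higher, 1 lower and a median of 1.10. Vim, an intermediate filament of progenitors and glia, stood at 289 and 231 FPKM in GFP+ libraries, against 102 and 105 FPKM in GFP- libraries (log2 fold change 1.30 ± 0.15, adjusted p = 0.00344). Slc1a3, the glial glutamate transporter, stood at 171 and 132 FPKM in GFP+ libraries, against 55.5 and 64.6 FPKM in GFP- libraries (log2 fold change 1.31 ± 0.17, adjusted p = 0.00528). Dkk3, a secreted protein of the Dickkopf family, stood at 338 and 360.4 FPKM in GFP+ libraries, against 174 and 151 FPKM in GFP- libraries (log2 fold change 1.10 ± 0.13, adjusted p = 0.00400). For these 3 genes the sorts lay further apart than the replicates of either sort. Glul, glutamine synthetase, had 0.99 ± 0.18 with adjusted p = 0.0138, Pdpn, podoplanin, had 1.29 ± 0.16 with adjusted p = 0.00499, Kcnj10, an inward rectifier potassium channel of glia, had 1.15 ± 0.19 with adjusted p = 0.0114 and Nfia, a nuclear factor I protein, had 0.68 ± 0.15 with adjusted p = 0.0254. Clu, clusterin, was the member that was lower, at 1.42 and 0.956 FPKM in GFP+ libraries, against 5.29 and 8.68 FPKM in GFP- libraries (log2 fold change -1.84 ± 0.26, adjusted p = 0.00732). Rlbp1, the retinaldehyde-binding protein of Mueller glia, was not called, and the sorts overlapped, with 188 and 79.5 FPKM in GFP+ libraries, against 39.3 and 86.2 FPKM in GFP- libraries (1.06 ± 0.49, adjusted p = 0.167). Nfib at 0.69 ± 0.24 with adjusted p = 0.0867 and Nfix at 0.88 ± 0.32 with adjusted p = 0.0927 were not called either. The number called higher was 9 without GFP+ replicate 2. Nfia lost its call without GFP+ replicate 1 (adjusted p = 0.0805), without GFP- replicate 1 (adjusted p = 0.0563) and without GFP- replicate 2 (adjusted p = 0.0706). Glul and Nfia lost their calls without GFP+ replicate 2 (adjusted p = 0.0690 and 0.186).

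Receptors and targets of the Notch pathway were higher in GFP+ libraries, and Jagged ligands were lower. In the list, 13 of 27 tested genes were higher (48.1%) and 3 lower (11.1%), against 11.4% and 13.8% of all genes tested. Through the GFP- libraries alone 1 had entered. The receptor Notch1 stood at 157 and 155 FPKM in GFP+ libraries, against 66.5 and 80.6 FPKM in GFP- libraries (log2 fold change 1.08 ± 0.14, adjusted p = 0.00528), and Notch2 and Notch3 had 1.13 ± 0.16 with adjusted p = 0.00789 and 1.19 ± 0.21 with adjusted p = 0.0136. The ligand Dll1 stood at 83.5 and 97.8 FPKM in GFP+ libraries, against 52.5 and 46.3 FPKM in GFP- libraries (log2 fold change 0.86 ± 0.14, adjusted p = 0.0117), and Dll3 had 0.63 ± 0.16 with adjusted p = 0.0345. Other ligands went the other way, at low levels. Jag1 stood at 0.513 and 0.489 FPKM in GFP+ libraries, against 2.30 and 3.03 FPKM in GFP- libraries (log2 fold change -1.28 ± 0.19, adjusted p = 0.00823) and Jag2 at 1.23 and 1.45 FPKM in GFP+ libraries, against 7.06 and 7.80 FPKM in GFP- libraries (log2 fold change -1.85 ± 0.18, adjusted p = 0.00202). Dner, a Notch-binding protein of neurons, had -1.38 ± 0.15 with adjusted p = 0.00324. Among targets and modifiers, Hes5, a repressor of neurogenesis, stood at 418 and 387 FPKM in GFP+ libraries, against 204 and 174 FPKM in GFP- libraries (log2 fold change 1.09 ± 0.13, adjusted p = 0.00442), Hey2 had 1.10 ± 0.15 with adjusted p = 0.00634, the glycosyltransferase Lfng had 1.36 ± 0.18 with adjusted p = 0.00558 and the feedback inhibitor Nrarp had 1.15 ± 0.15 with adjusted p = 0.00582. Hes1 was not called, at 103 and 166 FPKM in GFP+ libraries, against 78.0 and 36.8 FPKM in GFP- libraries (1.27 ± 0.38, adjusted p = 0.0582). Without GFP+ replicate 2, 5 members were called higher, and without GFP- replicate 2, 7. Jag1 lay below 1 FPKM in both GFP+ libraries and so entered the test through the GFP- libraries alone. Dll3 lost its call without GFP+ replicate 1 (adjusted p = 0.0817). Notch2, Notch3, Dll1, Dll3 and Jag1 lost their calls without GFP+ replicate 2 (adjusted p = 0.0504 to 0.235). Notch3 and Dll3 lost their calls without GFP- replicate 2 (adjusted p = 0.0573 and 0.109).

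In the Hedgehog pathway, by which ganglion cells keep progenitors dividing, 6 of 11 tested genes were higher (54.5%) and 0 lower. Of all genes tested, 11.4% were higher and 13.8% lower. The ligand Shh did not reach 1 FPKM in 2 libraries. Ptch1, the receptor and a target, stood at 38 and 41.9 FPKM in GFP+ libraries, against 21.1 and 23.5 FPKM in GFP- libraries (log2 fold change 0.81 ± 0.14, adjusted p = 0.0130). Smo, the signal transducer, had 0.97 ± 0.15 with adjusted p = 0.00888 and the factor Gli3 had 1.19 ± 0.18 with adjusted p = 0.00893. Gli1, the most direct readout of the pathway, had the largest difference in the list but was not called. It stood at 18.9 and 55.3 FPKM in GFP+ libraries, against 16.1 and 5.10 FPKM in GFP- libraries (1.71 ± 0.62, adjusted p = 0.0955), so that GFP+ replicate 1 was nearly level with GFP- replicate 1. Of 26 Wnt genes tested, 9 were higher (34.6%) and 1 lower (3.85%). The receptor Fzd5 stood at 71.7 and 96.4 FPKM in GFP+ libraries, against 40.7 and 32.7 FPKM in GFP- libraries (log2 fold change 1.16 ± 0.19, adjusted p = 0.0113), and Tcf7l1, a repressor of Wnt targets, had 1.01 ± 0.18 with adjusted p = 0.0149. Rspo2, a secreted amplifier of Wnt signals, was lower, at 2.97 and 3.63 FPKM in GFP+ libraries, against 7.87 and 8.09 FPKM in GFP- libraries (log2 fold change -1.07 ± 0.18, adjusted p = 0.0116). Of 17 genes of FGF and EGF signalling, 9 were higher (52.9%) and 1 lower (5.88%). Fgfr1, a receptor, stood at 28.8 and 27.9 FPKM in GFP+ libraries, against 12.9 and 14.3 FPKM in GFP- libraries (log2 fold change 1.01 ± 0.14, adjusted p = 0.00753). Fgf9, a ligand, had 0.87 ± 0.16 with adjusted p = 0.0162, and Etv5, a target factor, had 1.43 ± 0.28 with adjusted p = 0.0171. Hbegf, a ligand of the EGF receptor that entered the test through the GFP- libraries alone, was lower, at 0.440 and 0.733 FPKM in GFP+ libraries, against 5.04 and 3.35 FPKM in GFP- libraries (log2 fold change -1.70 ± 0.23, adjusted p = 0.00651). Fgf15, a growth factor of progenitors, was not called, at 74.6 and 171 FPKM in GFP+ libraries, against 57.5 and 18.0 FPKM in GFP- libraries (1.77 ± 0.59, adjusted p = 0.0760). Without GFP+ replicate 2 the higher counts were 0 for Hedgehog, 1 for Wnt and 1 for FGF and EGF genes, and without GFP- replicate 2 they were 4, 2 and 1. Rspo2 lost its call without GFP+ replicate 1 (adjusted p = 0.0533). Ptch1, Smo, Gli3, Fzd5, Tcf7l1, Fgf9 and Etv5 lost their calls without GFP+ replicate 2 (adjusted p = 0.0516 to 0.110). Tcf7l1, Fgf9 and Etv5 lost their calls without GFP- replicate 2 (adjusted p = 0.0531 to 0.0591).

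**Figure D3:**
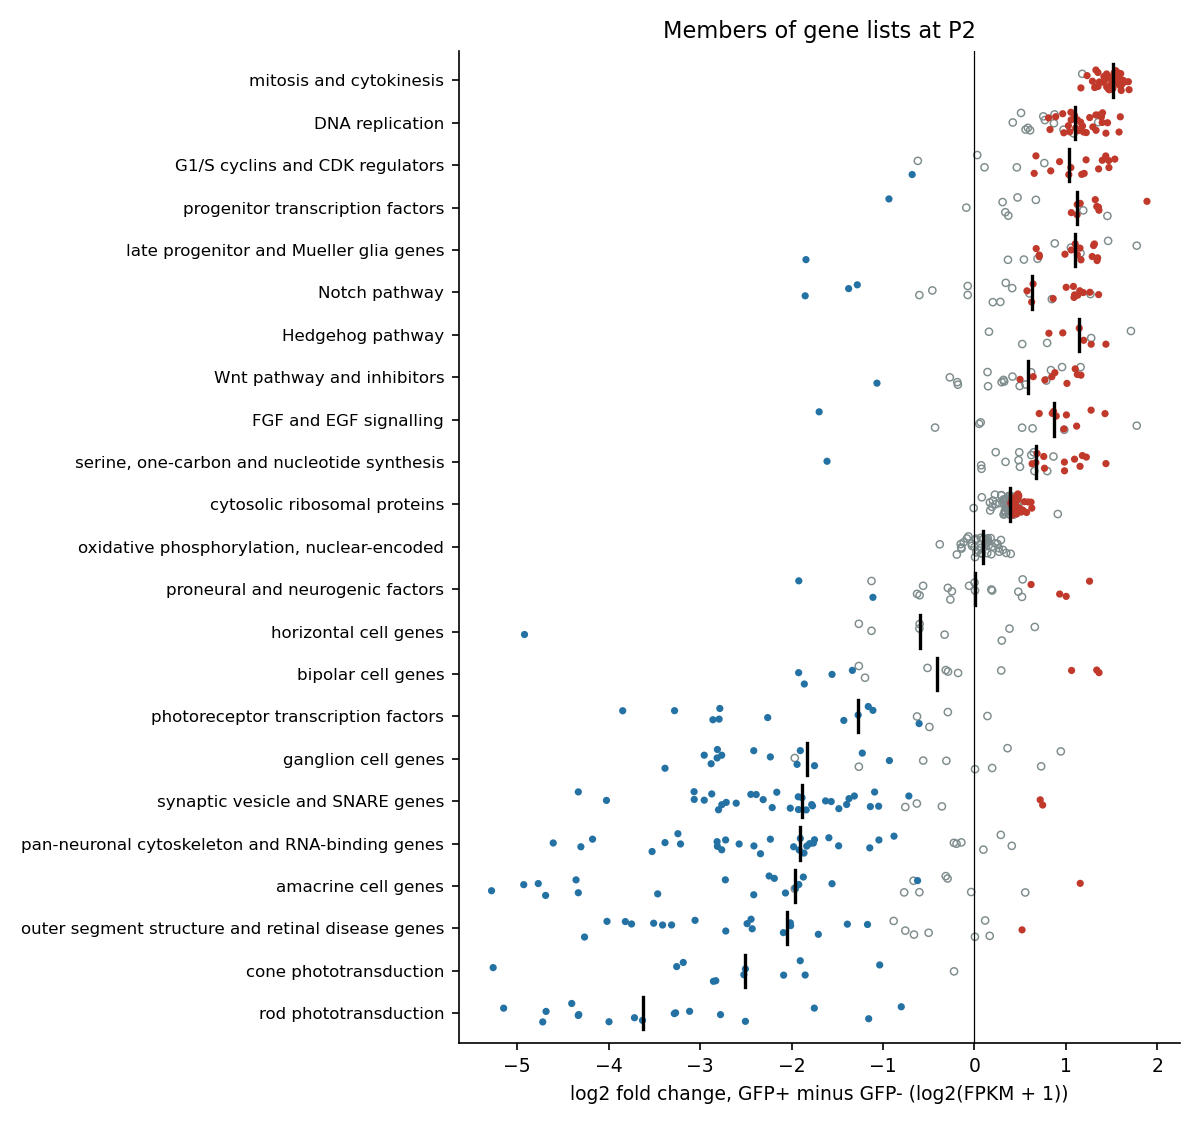
Log2 fold change between GFP+ and GFP- libraries at P2 for the tested members of 23 gene lists. Red and blue points were called higher and lower, open points were not called, and black bars are list medians. The medians run down from 1.51 for mitosis genes to -3.63 for rod phototransduction genes, and nuclear-encoded genes of oxidative phosphorylation sit around 0.

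Factors that start neurogenesis did not divide the sorts as a group. Of 21 tested, 4 were higher (19.0%) and 2 lower (9.52%), against 11.4% and 13.8% of all genes tested, and the median was 0.00. Hes6, which is switched on as progenitors commit, stood at 428 and 545 FPKM in GFP+ libraries, against 264 and 219 FPKM in GFP- libraries (log2 fold change 1.0 ± 0.17, adjusted p = 0.0117). Olig2, a marker of progenitors near their last division, had 0.93 ± 0.26 with adjusted p = 0.0482. Neurod1 and Neurod2, which act in young neurons, were lower. Neurod1 stood at 214 and 154 FPKM in GFP+ libraries, against 318 and 486 FPKM in GFP- libraries (log2 fold change -1.11 ± 0.25, adjusted p = 0.0249), and Neurod2 had -1.92 ± 0.29 with adjusted p = 0.00867. Neurog2 (0.53 ± 0.19, adjusted p = 0.0928) and Atoh7 (0.52 ± 0.65, adjusted p = 0.597), which is required for ganglion cells, were not called. Otx2, which commits cells to photoreceptors and bipolar cells, was abundant in both sorts and not called. It stood at 534 and 333 FPKM in GFP+ libraries, against 413 and 645 FPKM in GFP- libraries (-0.29 ± 0.29, adjusted p = 0.501), and the sorts overlapped. Members called higher were 2 without GFP+ replicate 1, 0 without GFP+ replicate 2 and 1 without GFP- replicate 2, and 1 was called lower without GFP+ replicate 2. Olig2 lost its call without GFP+ replicate 1 (adjusted p = 0.0596). Hes6, Olig2 and Neurod1 lost their calls without GFP+ replicate 2 (adjusted p = 0.0583 to 0.223) and without GFP- replicate 2 (adjusted p = 0.0617 to 0.142).

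Most transcription factors of photoreceptors were lower in GFP+ libraries. Otx2 acts upstream of Crx, which with Nrl and Nr2e3 sets the rod programme. Of 15 photoreceptor transcription factors tested, 11 were lower and 0 higher, with a median of -1.27, and 2 of the 11 entered the test through the GFP- libraries alone. Crx stood at 182 and 105 FPKM in GFP+ libraries, against 261 and 536 FPKM in GFP- libraries (log2 fold change -1.43 ± 0.39, adjusted p = 0.0442). Nrl stood at 51.3 and 21.7 FPKM in GFP+ libraries, against 142 and 398 FPKM in GFP- libraries (log2 fold change -2.79 ± 0.56, adjusted p = 0.0191). Nr2e3 stood at 36.5 and 14.7 FPKM in GFP+ libraries, against 197 and 613 FPKM in GFP- libraries (log2 fold change -3.85 ± 0.60, adjusted p = 0.00973). The fall deepened along this order of genes, and for each the GFP- libraries differed from each other by more than the GFP+ libraries did in FPKM. Rxrg and Thrb, nuclear receptors of cones, were at -2.78 ± 0.17 with adjusted p = 0.000695 and -2.26 ± 0.25 with adjusted p = 0.00327. Samd7 and Samd11, partners of Polycomb in rods, were at -2.86 ± 0.66 with adjusted p = 0.0268 and -3.28 ± 0.67 with adjusted p = 0.0196. Prdm1, which keeps photoreceptor precursors from becoming bipolar cells, was not called (-0.63 ± 0.20, adjusted p = 0.0648), nor was Rorb (0.14 ± 0.13, adjusted p = 0.465). The log2 fold changes of Nrl, Nr2e3, Samd7 and Samd11 were -2.05, -3.03, -2.04 and -2.40 without GFP- replicate 2. With GFP+ replicate 1 left out they were -3.40, -4.48, -3.62 and -4.01, and with GFP+ replicate 2 left out -2.19, -3.22, -2.10 and -2.55. Without GFP- replicate 1 they were -3.53, -4.66, -3.68 and -4.16. Without GFP+ replicate 2, 3 of the 15 were called lower, and without GFP- replicate 2, 5. Rxrg lay below 1 FPKM in both GFP+ libraries and so entered the test through the GFP- libraries alone. Crx, Nrl, Samd7 and Samd11 lost their calls without GFP+ replicate 2 (adjusted p = 0.0539 to 0.162) and without GFP- replicate 2 (adjusted p = 0.0543 to 0.140).

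All 17 tested genes of rod phototransduction were lower in GFP+ libraries, with a median log2 fold change of -3.63. Of these, 7 entered the test through the GFP- libraries alone, which set their direction. The 10 that reached 1 FPKM in a GFP+ library were all called lower too. Sag, rod arrestin, which helps to end the response of rods to light, stood at 6.95 and 5.83 FPKM in GFP+ libraries, against 172 and 394 FPKM in GFP- libraries (log2 fold change -5.15 ± 0.37, adjusted p = 0.000886). Pdc, phosducin, which binds the beta-gamma subunits of transducin, stood at 25.6 and 12.8 FPKM in GFP+ libraries, against 252 and 652 FPKM in GFP- libraries (log2 fold change -4.40 ± 0.49, adjusted p = 0.00344). In both the GFP+ libraries were far below both GFP- libraries, and GFP- replicate 2 was more than 2-fold above GFP- replicate 1. Rcvrn, the calcium sensor recoverin, differed from them. Its GFP- libraries were level, with 0.351 and 0.414 FPKM in GFP+ libraries, against 27.0 and 26.8 FPKM in GFP- libraries (log2 fold change -4.33 ± 0.17, adjusted p = 0.000578). Gngt1, the gamma subunit of rod transducin, stood at 1.08 and 0.689 FPKM in GFP+ libraries, against 34 and 65.3 FPKM in GFP- libraries (log2 fold change -4.68 ± 0.32, adjusted p = 0.000766). Gnat1, the alpha subunit, was low in both sorts, at 1.01 and 1.07 FPKM in GFP+ libraries, against 2.54 and 4.84 FPKM in GFP- libraries (log2 fold change -1.16 ± 0.27, adjusted p = 0.0277). The smallest fall was that of Gnb1 (-0.80 ± 0.22, adjusted p = 0.0467), a beta subunit used by many G proteins. Pde6a, Guca1b, Gucy2f and Slc24a1 were not tested. The log2 fold changes of Sag and Pdc were -4.55 and -3.72 without GFP- replicate 2, and -5.75 and -5.09 without GFP- replicate 1. Rcvrn lay below 1 FPKM in both GFP+ libraries and so entered the test through the GFP- libraries alone. Gnat1 and Gnb1 lost their calls without GFP+ replicate 1 (adjusted p = 0.0850 and 0.127), without GFP+ replicate 2 (adjusted p = 0.103 and 0.123) and without GFP- replicate 2 (adjusted p = 0.0551 and 0.114).

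The 250 bases before the start of 2 rod genes are shown because Crx, a homeobox factor that binds TAATCC, fell with them. Capitals mark TAATCC on either strand, here in each case as its reverse complement, and the sequences are from RefSeq on GRCm38.p6. These genes, too, were picked after the matches were seen.
Sag (chr1:87803430-87803679, plus strand): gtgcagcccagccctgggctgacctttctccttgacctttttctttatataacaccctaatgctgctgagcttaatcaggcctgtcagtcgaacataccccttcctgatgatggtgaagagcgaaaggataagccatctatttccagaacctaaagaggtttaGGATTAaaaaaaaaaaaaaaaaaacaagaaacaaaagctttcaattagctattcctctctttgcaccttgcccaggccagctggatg
Gngt1 (chr6:3993758-3994007, plus strand): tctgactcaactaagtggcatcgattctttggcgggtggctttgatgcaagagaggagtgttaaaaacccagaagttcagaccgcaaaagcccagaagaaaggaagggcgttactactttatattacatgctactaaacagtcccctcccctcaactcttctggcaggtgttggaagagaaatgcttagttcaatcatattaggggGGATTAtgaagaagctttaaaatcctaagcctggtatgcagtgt
The match began 87 bases before the start of Sag and 44 bases before that of Gngt1. Within 250 bases before to 50 after the start, TAATCC was found on either strand in 7 of 12 promoters of tested rod phototransduction genes (58.3%), against 4.4% of the promoters of genes called higher, 6.55% of those of genes called lower, 5.7% of those of all genes tested and 7.06% of all promoters. On the gene strand alone the share was 16.7% of the rod promoters and 3.38% of all promoters. It was found in 28.6% of 21 promoters of photoreceptor transcription factors and in 2 of 9 promoters of cone phototransduction genes (22.2%). On the gene strand alone it was found in 0 of these 9. Outer segment genes held it in 5 of 34 promoters (14.7%). That was near the 4 of 34 promoters of synaptic vesicle genes (11.8%) and the 3 of 25 of amacrine genes. DNA replication genes held it in 1 of 37 promoters. For the mitosis genes it was found in 0 of 42 promoters.

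Cone genes were lower as well, with 11 of 12 tested called lower and 0 higher, and 6 of the 7 that reached 1 FPKM in a GFP+ library. Opn1sw, which encodes the S opsin of cones, stood at 1.39 and 1.61 FPKM in GFP+ libraries, against 134 and 67.5 FPKM in GFP- libraries (log2 fold change -5.26 ± 0.32, adjusted p = 0.000689). Gnat2, cone transducin, stood at 0.913 and 0.873 FPKM in GFP+ libraries, against 24 and 12.1 FPKM in GFP- libraries (log2 fold change -3.26 ± 0.32, adjusted p = 0.00214). Unlike Sag and Pdc, both were higher in GFP- replicate 1 than in GFP- replicate 2. Gngt2, the cone transducin gamma subunit, stood at 61.2 and 26.7 FPKM in GFP+ libraries, against 239 and 374 FPKM in GFP- libraries (log2 fold change -2.85 ± 0.40, adjusted p = 0.00707), and Arr3, cone arrestin, at -3.18 ± 0.24 with adjusted p = 0.000956. Genes of the outer segment followed, with 18 of 26 lower, 1 higher and a median of -2.05. Of the 21 that reached 1 FPKM in a GFP+ library, 13 were lower. Rp1, a microtubule protein of the outer segment, stood at 2.13 and 1.06 FPKM in GFP+ libraries, against 29.5 and 76.9 FPKM in GFP- libraries (log2 fold change -4.26 ± 0.45, adjusted p = 0.00295). Tulp1, a tubby-like protein of photoreceptors, stood at 15.4 and 7.15 FPKM in GFP+ libraries, against 123 and 283 FPKM in GFP- libraries (log2 fold change -4.02 ± 0.47, adjusted p = 0.00400). Prph2, the tetraspanin of the disc rim, stood at 11.8 and 4.29 FPKM in GFP+ libraries, against 58.9 and 203 FPKM in GFP- libraries (log2 fold change -3.75 ± 0.64, adjusted p = 0.0123). In these 3, too, GFP- replicate 2 was more than 2-fold above GFP- replicate 1. Crb1, a polarity protein of progenitors, glia and photoreceptors, was the member that was higher, at 33.2 and 35.8 FPKM in GFP+ libraries, against 22.3 and 25.2 FPKM in GFP- libraries (log2 fold change 0.52 ± 0.14, adjusted p = 0.0447). Without GFP- replicate 2 the log2 fold changes of Rp1, Tulp1 and Prph2 were -3.59, -3.42 and -2.87, and without GFP- replicate 1 they were -4.94, -4.62 and -4.63. That of Prph2 was -4.38 without GFP+ replicate 1 and -3.12 without GFP+ replicate 2. The fit without GFP+ replicate 2 called 12 outer segment genes lower. Gnat2 and Arr3 lay below 1 FPKM in both GFP+ libraries and so entered the test through the GFP- libraries alone. Crb1 lost its call without GFP+ replicate 1 (adjusted p = 0.142), without GFP+ replicate 2 (adjusted p = 0.276), without GFP- replicate 1 (adjusted p = 0.0924) and without GFP- replicate 2 (adjusted p = 0.0643).

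**Figure D4:**
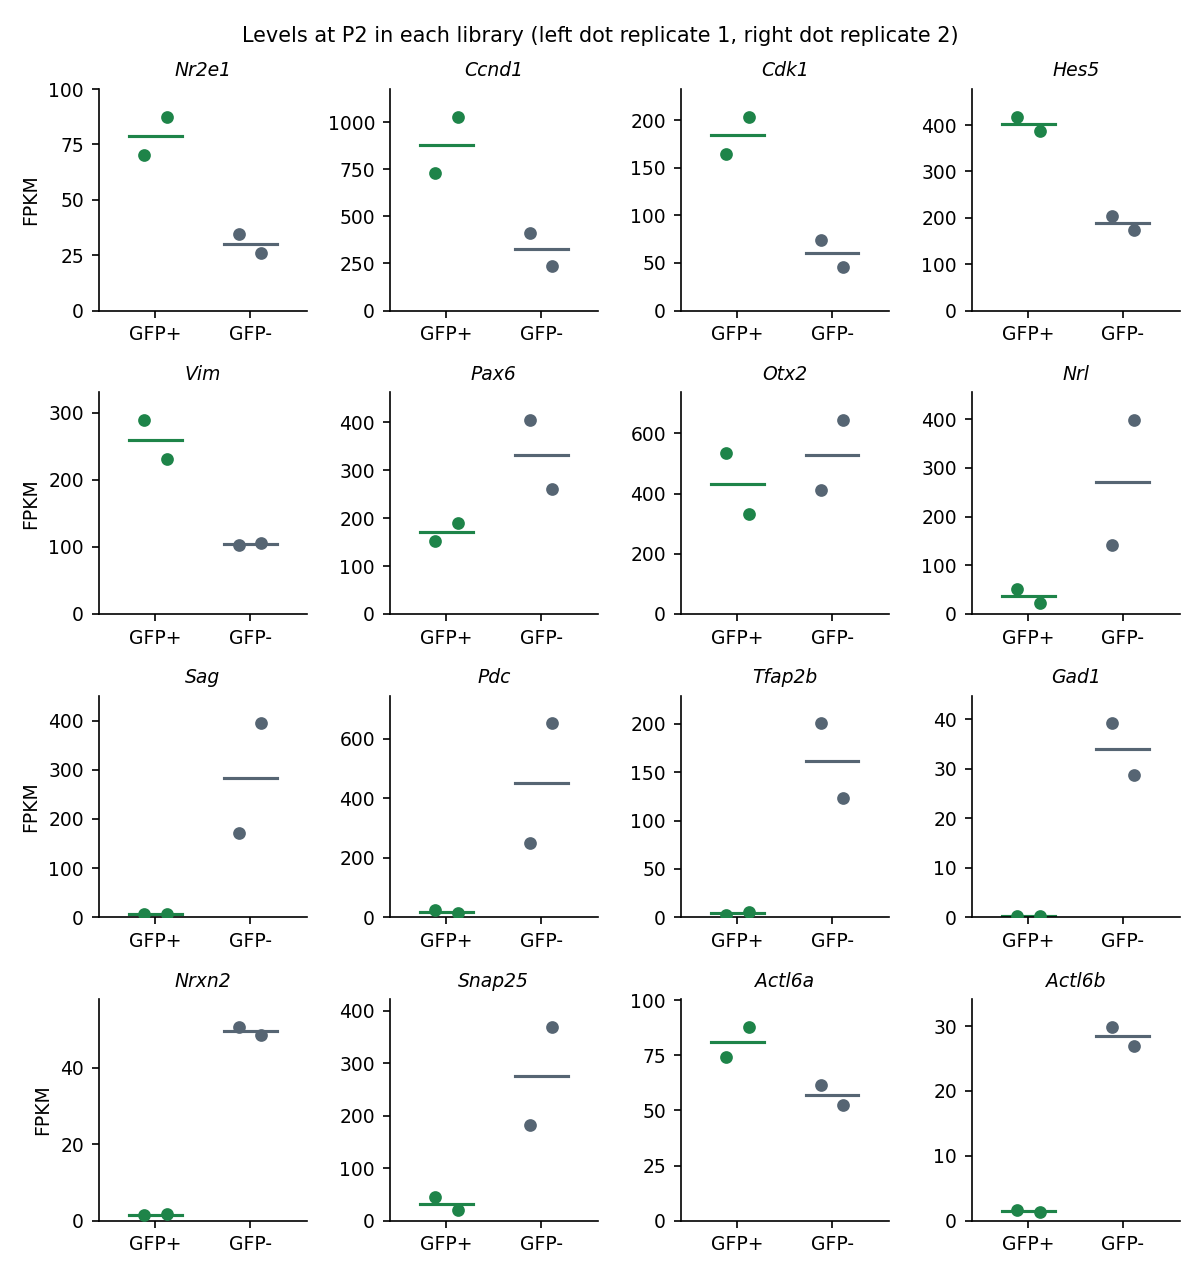
FPKM of 16 genes in each P2 library, with replicate 1 as the left and replicate 2 as the right dot of each sort and the group mean as a line. Nr2e1, Hes5 and Vim differ between sorts by far more than between replicates, Nrl, Sag, Pdc and Snap25 differ widely between the GFP- replicates, and Otx2 overlaps between the sorts.

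Amacrine genes included the lowest fold change of all genes named. Of 26 tested genes, 17 were lower and 1 higher, with a median of -1.96, and of the 21 that reached 1 FPKM in a GFP+ library 13 were lower. Tfap2a, a transcription factor of amacrine cells, stood at 0.473 and 1.73 FPKM in GFP+ libraries, against 107 and 55.4 FPKM in GFP- libraries (log2 fold change -5.28 ± 0.40, adjusted p = 0.00103). Tfap2b, its relative in amacrine and horizontal cells, stood at 2.87 and 5.95 FPKM in GFP+ libraries, against 200.3 and 123 FPKM in GFP- libraries (log2 fold change -4.93 ± 0.34, adjusted p = 0.000798). Gad1, which makes the transmitter GABA, stood at 0.266 and 0.274 FPKM in GFP+ libraries, against 39.2 and 28.9 FPKM in GFP- libraries (log2 fold change -4.77 ± 0.21, adjusted p = 0.000578). GFP- replicate 1 was the higher of the GFP- libraries in all 3. Slc32a1, the vesicular transporter of GABA and glycine, had level GFP- libraries, at 0.320 and 0.662 FPKM in GFP+ libraries, against 28.5 and 29.2 FPKM in GFP- libraries (log2 fold change -4.33 ± 0.19, adjusted p = 0.000578). Calb2, calretinin, had -2.72 ± 0.17 with adjusted p = 0.000695, C1ql2, a complement-like synaptic protein, had -4.36 ± 0.19 with adjusted p = 0.000578, and Meis2, a homeobox factor of GABA-releasing amacrine cells, had -2.07 ± 0.27 with adjusted p = 0.00537. Lamp5, a membrane protein of some GABA-releasing neurons, stood at 0.458 and 0.346 FPKM in GFP+ libraries, against 19.7 and 62.1 FPKM in GFP- libraries (log2 fold change -4.69 ± 0.49, adjusted p = 0.00280), which was -3.89 without GFP- replicate 2 and -5.49 without GFP- replicate 1. Ptf1a, which commits progenitors to amacrine and horizontal fates, was not called (-0.60 ± 0.47, adjusted p = 0.394), and Gad2 was not either (-0.77 ± 0.28, adjusted p = 0.0975). The higher member was Sox2, named above among progenitor factors. Gad1, Slc32a1, C1ql2 and Lamp5 lay below 1 FPKM in both GFP+ libraries and so entered the test through the GFP- libraries alone.

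Genes of horizontal and ganglion cells, the other early-born types, and of bipolar cells differed by member. Horizontal cell genes had 11.1% called lower, near the 13.8% of all genes tested. Of 9 horizontal cell genes tested, 1 was lower, Tfap2b, and 0 were higher, with 2 lower without GFP+ replicate 1 or without GFP- replicate 2. Onecut1, a factor of horizontal cell genesis, stood at 0.440 and 0.825 FPKM in GFP+ libraries, against 4.02 and 1.5 FPKM in GFP- libraries (-1.13 ± 0.35, adjusted p = 0.0633), and Prox1 was present in both sorts at 38.7 and 35.8 FPKM in GFP+ libraries, against 23.5 and 34 FPKM in GFP- libraries (0.38 ± 0.20, adjusted p = 0.204). Of 33 ganglion cell genes, 22 were tested, 13 were lower and 0 higher, with a median of -1.83, and 2 had entered through the GFP- libraries alone. Pou4f2, a defining factor of ganglion cells, was below 1 FPKM throughout, at 0.0411 and 0.0825 FPKM in GFP+ libraries, against 0.512 and 0.0473 FPKM in GFP- libraries. Sncg, gamma-synuclein, reached 1 FPKM in GFP- replicate 1 alone, at 0.0519 and 0.129 FPKM in GFP+ libraries, against 2.64 and 0.262 FPKM in GFP- libraries. Isl1, a factor that amacrine and bipolar cells also use, was not called, at 6.06 and 1.66 FPKM in GFP+ libraries, against 15.7 and 5.50 FPKM in GFP- libraries (-1.26 ± 0.59, adjusted p = 0.166). The members called lower are largely shared with other neurons. Elavl3, an RNA-binding protein, stood at 6.08 and 7.47 FPKM in GFP+ libraries, against 58.8 and 48.3 FPKM in GFP- libraries (log2 fold change -2.81 ± 0.18, adjusted p = 0.000695), Gap43, a growth cone protein, at 8.48 and 7.08 FPKM in GFP+ libraries, against 31.3 and 25.8 FPKM in GFP- libraries (log2 fold change -1.75 ± 0.18, adjusted p = 0.00248), and L1cam, an adhesion protein of axons, had -2.88 ± 0.19 with adjusted p = 0.000712. Of 14 bipolar cell genes tested, 3 were higher (21.4%) and 4 lower (28.6%), against 11.4% and 13.8% of all genes tested. Of the 12 that reached 1 FPKM in a GFP+ library 2 were lower. Irx5 (1.36 ± 0.26, adjusted p = 0.0164) and Irx6 (1.06 ± 0.17, adjusted p = 0.0100) were among the higher ones, and Gnao1, a G protein subunit of many neurons, stood at 21.5 and 19.6 FPKM in GFP+ libraries, against 75.2 and 79.1 FPKM in GFP- libraries (log2 fold change -1.86 ± 0.13, adjusted p = 0.000866). Grm6 and Vsx1, which mark mature bipolar cells, did not reach 1 FPKM in any of the 4 libraries. The fit without GFP+ replicate 2 called 1 bipolar cell gene higher. Onecut1 lay below 1 FPKM in both GFP+ libraries and so entered the test through the GFP- libraries alone. Irx5 and Irx6 lost their calls without GFP+ replicate 2 (adjusted p = 0.0702 and 0.0598).

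Cytoskeletal and RNA-binding genes of neurons were lower almost throughout. Of 34 cytoskeletal and RNA-binding genes, 28 were lower and 0 higher, with a median of -1.91, and of the 30 that reached 1 FPKM in a GFP+ library 24 were lower. Nrxn2, a presynaptic adhesion protein, stood at 1.49 and 1.63 FPKM in GFP+ libraries, against 50.7 and 48.5 FPKM in GFP- libraries (log2 fold change -4.30 ± 0.16, adjusted p = 0.000578). Ina, a neuronal intermediate filament, stood at 0.794 and 1.16 FPKM in GFP+ libraries, against 57.5 and 38.4 FPKM in GFP- libraries (log2 fold change -4.61 ± 0.24, adjusted p = 0.000578). Dcx, a microtubule protein of young neurons, stood at 0.112 and 0.170 FPKM in GFP+ libraries, against 28.1 and 13.6 FPKM in GFP- libraries (log2 fold change -4.18 ± 0.33, adjusted p = 0.00117). Tubb3, the neuronal tubulin most used as a marker, fell far less, with 65.5 and 69.2 FPKM in GFP+ libraries, against 197 and 114 FPKM in GFP- libraries (log2 fold change -1.14 ± 0.25, adjusted p = 0.0243). Stmn1, a tubulin-binding protein of dividing cells and neurons, was level at 639 and 705 FPKM in GFP+ libraries, against 690.3 and 570.0 FPKM in GFP- libraries (0.10 ± 0.14, adjusted p = 0.650). Mapt, tau, differed between the GFP+ libraries, at 10.8 and 1.5 FPKM in GFP+ libraries, against 49.7 and 51.1 FPKM in GFP- libraries (log2 fold change -3.24 ± 0.66, adjusted p = 0.0196). Its log2 fold change was -4.36 without GFP+ replicate 1 and -2.12 without GFP+ replicate 2. Dcx lay below 1 FPKM in both GFP+ libraries and so entered the test through the GFP- libraries alone. Tubb3 lost its call without GFP+ replicate 1 (adjusted p = 0.0639) and without GFP+ replicate 2 (adjusted p = 0.0747). Mapt lost its call without GFP- replicate 2 (adjusted p = 0.0760).

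Of 37 synaptic vesicle genes 32 were lower and 2 higher, with a median of -1.89, and of the 32 that reached 1 FPKM in a GFP+ library 27 were lower. Snap25, a SNARE protein, stood at 44.6 and 20.3 FPKM in GFP+ libraries, against 183 and 369 FPKM in GFP- libraries (log2 fold change -3.07 ± 0.44, adjusted p = 0.00787). Sv2a, a vesicle glycoprotein, stood at 3.23 and 3.28 FPKM in GFP+ libraries, against 31.3 and 38.2 FPKM in GFP- libraries (log2 fold change -3.06 ± 0.17, adjusted p = 0.000578), and Syn1, synapsin, at 2.44 and 2.27 FPKM in GFP+ libraries, against 20.9 and 21.1 FPKM in GFP- libraries (log2 fold change -2.71 ± 0.16, adjusted p = 0.000689). Slc17a7, the vesicular glutamate transporter of photoreceptors, stood at 0.889 and 0.704 FPKM in GFP+ libraries, against 20.9 and 37.9 FPKM in GFP- libraries (log2 fold change -4.02 ± 0.29, adjusted p = 0.000922). Snap25 and Slc17a7 were higher in GFP- replicate 2, while Sv2a and Syn1 were nearly level between the GFP- libraries. Syt11 (0.72 ± 0.20, adjusted p = 0.0474) and Sypl (0.75 ± 0.14, adjusted p = 0.0150), which are used outside synapses too, were the higher ones. Of 36 voltage-gated channel genes 26 were lower and 0 higher, with a median of -1.24. Here 15 members entered the test through the GFP- libraries alone, and of the other 21, 11 were lower. Scn3a, a sodium channel, stood at 0.0582 and 0.179 FPKM in GFP+ libraries, against 8.52 and 6.94 FPKM in GFP- libraries (log2 fold change -2.96 ± 0.19, adjusted p = 0.000712). Of 24 transmitter receptor genes 18 were lower and 0 higher, and 10 had entered through the GFP- libraries alone, while 8 of the other 14 were lower. Glra2, a glycine receptor subunit, stood at 0.0762 and 0.135 FPKM in GFP+ libraries, against 18.2 and 16.2 FPKM in GFP- libraries (log2 fold change -4.04 ± 0.18, adjusted p = 0.000578), and Gria3, a glutamate receptor subunit, had -2.86 ± 0.17 with adjusted p = 0.000691. The count of lower synaptic vesicle genes was 21 without GFP+ replicate 2. Slc17a7, Scn3a, Glra2 and Gria3 lay below 1 FPKM in both GFP+ libraries and so entered the test through the GFP- libraries alone. Syt11 and Sypl lost their calls without GFP+ replicate 1 (adjusted p = 0.208 and 0.0606). Sypl lost its call without GFP+ replicate 2 (adjusted p = 0.113). Syt11 lost its call without GFP- replicate 1 (adjusted p = 0.120) and without GFP- replicate 2 (adjusted p = 0.0825).

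Genes of axon guidance and adhesion were split by member. Of 36 guidance genes 5 were higher (13.9%) and 11 lower (30.6%), against 11.4% and 13.8% of all genes tested, with a median of 0.03. The share of higher genes was thus near that of all genes. Through the GFP- libraries alone 4 had entered, and of the other 32, 7 were lower. Epha3, an ephrin receptor, stood at 21.6 and 24.6 FPKM in GFP+ libraries, against 11.8 and 8.33 FPKM in GFP- libraries (log2 fold change 1.14 ± 0.20, adjusted p = 0.0138) and Sema4d, a semaphorin, had 1.10 ± 0.22 with adjusted p = 0.0184. Robo3, a receptor of the Slit pathway, stood at 10.5 and 7.30 FPKM in GFP+ libraries, against 72.0 and 151 FPKM in GFP- libraries (log2 fold change -3.43 ± 0.36, adjusted p = 0.00272), Slit2, a Slit ligand, at 2.57 and 2.75 FPKM in GFP+ libraries, against 18.4 and 13.6 FPKM in GFP- libraries (log2 fold change -2.20 ± 0.20, adjusted p = 0.00170), and Nrp2, a semaphorin co-receptor, at 0.149 and 0.168 FPKM in GFP+ libraries, against 6.05 and 13.2 FPKM in GFP- libraries (log2 fold change -3.11 ± 0.34, adjusted p = 0.00306). Of 25 cadherin and junction genes 11 were higher and 5 lower, against 11.4% and 13.8% of all genes tested. Without the 2 that had entered through the GFP- libraries alone, 3 of 23 were lower. On the same basis 1244 of 12226 of all genes tested were lower. The lower share of this list thus lay near that of all genes. Cdh2, N-cadherin, stood at 153 and 146 FPKM in GFP+ libraries, against 86.7 and 75.3 FPKM in GFP- libraries (log2 fold change 0.88 ± 0.13, adjusted p = 0.00805) and Itgb1, an integrin subunit, at 80.8 and 76.9 FPKM in GFP+ libraries, against 40.7 and 37.7 FPKM in GFP- libraries (log2 fold change 0.99 ± 0.13, adjusted p = 0.00509). Cdh13, a cadherin without a cytoplasmic part, stood at 0.641 and 0.388 FPKM in GFP+ libraries, against 3.53 and 3.04 FPKM in GFP- libraries (log2 fold change -1.5 ± 0.19, adjusted p = 0.00511), and Gjd2, the main neuronal connexin, had -1.63 ± 0.41 with adjusted p = 0.0348. Both GFP+ libraries lay above both GFP- libraries for Cdh2 and Itgb1 and below them for Cdh13. The numbers of higher guidance and adhesion genes were 2 and 5 without GFP+ replicate 1, 1 and 3 without GFP+ replicate 2, and 2 and 7 without GFP- replicate 2. The numbers of lower ones were 7 and 3 without GFP+ replicate 1, 6 and 2 without GFP+ replicate 2, and 8 and 3 without GFP- replicate 2. Nrp2 and Cdh13 lay below 1 FPKM in both GFP+ libraries and so entered the test through the GFP- libraries alone. Epha3, Sema4d and Gjd2 lost their calls without GFP+ replicate 2 (adjusted p = 0.0720 to 0.112). Sema4d and Gjd2 lost their calls without GFP- replicate 2 (adjusted p = 0.0707 and 0.138).

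In metabolism, 4 of 23 glycolysis genes were higher (17.4%) and 3 lower (13.0%), which is near the 11.4% and 13.8% of all genes tested. The pairs of related genes given next were chosen after their values were seen. Among glucose transporters, Slc2a1 stood at 214 and 237 FPKM in GFP+ libraries, against 126 and 132 FPKM in GFP- libraries (log2 fold change 0.80 ± 0.12, adjusted p = 0.00878), and Slc2a3, the neuronal one, at 3.24 and 2.50 FPKM in GFP+ libraries, against 7.12 and 10.9 FPKM in GFP- libraries (log2 fold change -1.35 ± 0.24, adjusted p = 0.0139). Among enolases, Eno1 stood at 816 and 706 FPKM in GFP+ libraries, against 372 and 451 FPKM in GFP- libraries (log2 fold change 0.89 ± 0.15, adjusted p = 0.0118), and Eno2, the neuronal one, at 18.9 and 11.2 FPKM in GFP+ libraries, against 52.8 and 80.9 FPKM in GFP- libraries (log2 fold change -2.09 ± 0.30, adjusted p = 0.00731). For each pair, the general paralog was higher and the neuronal one lower in both GFP+ libraries. Among enzymes of guanine nucleotide synthesis, Impdh2 had 0.68 ± 0.18 with adjusted p = 0.0379 and Impdh1, the main form in photoreceptors, had -1.61 ± 0.28 with adjusted p = 0.0136. Among fatty acid elongases, Elovl5 had 1.10 ± 0.15 with adjusted p = 0.00695 and Elovl2 had -2.19 ± 0.27 with adjusted p = 0.00475. Serine, folate and nucleotide synthesis was the metabolic list with most calls, 12 of 25 higher and 1 lower. Phgdh, the first enzyme of serine synthesis, stood at 12.2 and 13.5 FPKM in GFP+ libraries, against 5.06 and 4.78 FPKM in GFP- libraries (log2 fold change 1.22 ± 0.16, adjusted p = 0.00622), and Psat1, the next, at 113 and 113 FPKM in GFP+ libraries, against 54.0 and 46.6 FPKM in GFP- libraries (log2 fold change 1.15 ± 0.13, adjusted p = 0.00358). Of 40 nuclear-encoded genes of oxidative phosphorylation 0 were called in either direction by limma, with 4 of them at an unadjusted p below 0.05 and log2 values between -0.38 and 0.40. Higher counts without GFP+ replicate 2 were 2 for glycolysis and 2 for serine, folate and nucleotide synthesis, without GFP- replicate 2 they were 2 and 4, and glycolysis also had 2 without GFP+ replicate 1 and 2 without GFP- replicate 1. Slc2a1, Slc2a3, Impdh2 and Impdh1 lost their calls without GFP+ replicate 2 (adjusted p = 0.0511 to 0.242). Eno1 lost its call without GFP- replicate 1 (adjusted p = 0.0558). Impdh2 lost its call without GFP- replicate 2 (adjusted p = 0.131).

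Cytosolic ribosomal protein genes moved little and in 1 direction. Of 74 tested, 26 were higher and 0 lower, and the median was 0.39 with 73 of the 74 above 0. Rplp1 stood at 1076 and 1207 FPKM in GFP+ libraries, against 789 and 746 FPKM in GFP- libraries (log2 fold change 0.57 ± 0.12, adjusted p = 0.0236), and Rps27a, whose product also carries ubiquitin, at 461 and 465 FPKM in GFP+ libraries, against 294 and 305 FPKM in GFP- libraries (log2 fold change 0.63 ± 0.11, adjusted p = 0.0137). The sorts did not overlap in either, but both log2 fold changes were below 1. Under quantile scaling the median was 0.20 and 0 were called, under median-of-ratios scaling it was 0.37 with 2 called, and with the totals without abundant genes 0.32 with 1 called. The count was 2 without GFP+ replicate 1, 0 without GFP+ replicate 2, 5 without GFP- replicate 1 and 1 without GFP- replicate 2. Rps27a lost its call without GFP+ replicate 1 (adjusted p = 0.0598). Rplp1 and Rps27a lost their calls without GFP+ replicate 2 (adjusted p = 0.15 and 0.0924), without GFP- replicate 1 (adjusted p = 0.123 and 0.0560) and without GFP- replicate 2 (adjusted p = 0.203 and 0.0686).

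Among chromatin genes, 2 of 32 BAF and Polycomb genes were higher (6.25%) and 6 lower (18.8%), with a median of 0.06, against 11.4% and 13.8% of all genes tested, so that the list as a whole lay near the background. In the BAF remodelling complex some subunits are exchanged when progenitors become neurons, and some of the members called are given one by one. Actl6b, the neuronal actin-like subunit, stood at 1.57 and 1.37 FPKM in GFP+ libraries, against 29.9 and 26.9 FPKM in GFP- libraries (log2 fold change -3.57 ± 0.17, adjusted p = 0.000578). Actl6a, its progenitor counterpart, stood at 74.2 and 87.9 FPKM in GFP+ libraries, against 61.4 and 52.4 FPKM in GFP- libraries and was not called (0.50 ± 0.15, adjusted p = 0.0577). Dpf3, a neuronal subunit, stood at 3.20 and 2.39 FPKM in GFP+ libraries, against 19.2 and 20.1 FPKM in GFP- libraries (log2 fold change -2.45 ± 0.18, adjusted p = 0.000957), Dpf1, another, had -1.29 ± 0.30 with adjusted p = 0.0275, and Ss18l1, also neuronal, had -1.26 ± 0.17 with adjusted p = 0.00679 while its progenitor counterpart Ss18 was not called (0.39 ± 0.13, adjusted p = 0.0740). Thus neuronal subunits changed by up to more than 8-fold, while both progenitor subunits differed by less than 2-fold. Ezh2, the Polycomb methyltransferase, stood at 141 and 169 FPKM in GFP+ libraries, against 99.4 and 91.7 FPKM in GFP- libraries (log2 fold change 0.69 ± 0.14, adjusted p = 0.0195), and Bmi1, of the other Polycomb complex, at 47.7 and 38.3 FPKM in GFP+ libraries, against 75.3 and 75.4 FPKM in GFP- libraries (log2 fold change -0.80 ± 0.15, adjusted p = 0.0153). Of 13 DNA methylation genes 2 were higher (15.4%, near the 11.4% of all genes tested). They were Uhrf1 (1.6 ± 0.37, adjusted p = 0.0280), which brings the maintenance enzyme to replicated DNA, and Mbd2 (0.65 ± 0.15, adjusted p = 0.0252). Immediate early and heat shock genes, which respond to tissue dissociation, had 0 of 20 higher and 2 lower (10.0%, against 13.8% of all genes tested). The lower ones were Ier3 (-1.5 ± 0.16, adjusted p = 0.00270) and Hspa1a (-1.68 ± 0.47, adjusted p = 0.0482). The log2 fold change of Hspa1a was -2.31 without GFP+ replicate 1 and -1.05 without GFP+ replicate 2. The members of this list called lower were 4 without GFP+ replicate 1, 1 without GFP+ replicate 2 and 1 without GFP- replicate 2. Of the BAF and Polycomb genes, and likewise of the DNA methylation genes, 0 were called higher without GFP+ replicate 2 or without GFP- replicate 2. Dpf1 and Mbd2 lost their calls without GFP+ replicate 1 (adjusted p = 0.0884 and 0.0562). Ezh2, Bmi1, Uhrf1, Mbd2 and Hspa1a lost their calls without GFP+ replicate 2 (adjusted p = 0.107 to 0.203). Dpf1 lost its call without GFP- replicate 1 (adjusted p = 0.0758). Ezh2, Uhrf1, Mbd2 and Hspa1a lost their calls without GFP- replicate 2 (adjusted p = 0.0735 to 0.188).

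RNA of blood, vessel, pigment and other non-neural cells was low but not equal between the sorts. Summed over 11 erythroid genes, GFP+ libraries held 1.28 and 1.24 FPKM, against 30.5 and 40.6 FPKM in GFP- libraries. All 3 that were tested were lower, each having entered through the GFP- libraries alone. Hba-a1, a globin with a near-identical copy between which reads may be split, stood at 0.243 and 0.400 FPKM in GFP+ libraries, against 13.7 and 17.1 FPKM in GFP- libraries (log2 fold change -3.63 ± 0.20, adjusted p = 0.000578). Of 12 pigment epithelium genes 3 were tested and lower, also through the GFP- libraries alone, and 1 of them was called without either GFP+ replicate 1 or 2. No gene of the list exceeded 4.83 FPKM, and the sum over the list was 1.86 and 1.35 FPKM in GFP+ libraries against 8.33 and 10.3 FPKM in GFP- libraries. Of 14 microglial genes only Cd68 was tested, at 2.50 and 2.65 FPKM in GFP+ libraries, against 1.76 and 2.77 FPKM in GFP- libraries (0.15 ± 0.21, adjusted p = 0.649). Of 15 genes of pericytes and mesenchyme 0 were tested and the highest value in any library was 1.17 FPKM. Of 20 lens genes 1 was tested and the highest value was 2.28 FPKM. Of 15 endothelial genes 4 were tested and 2 were higher. Kdr, a VEGF receptor that retinal progenitors also carry, stood at 226 and 233 FPKM in GFP+ libraries, against 98.8 and 98.6 FPKM in GFP- libraries (log2 fold change 1.21 ± 0.11, adjusted p = 0.00186), and Egfl7 at 13.1 and 14.2 FPKM in GFP+ libraries, against 5.63 and 6.31 FPKM in GFP- libraries (log2 fold change 1.07 ± 0.16, adjusted p = 0.00912). Of 8 astrocyte genes 2 were tested and 0 called. The part of blood or pigment cells in the other falls was not tested. Egfl7 lost its call without GFP+ replicate 2 (adjusted p = 0.0602).

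The same genes were then examined in libraries that the P2 contrast had not used, the 2 GFP+ and 2 GFP- RNA libraries of E18. There 7950 of 13403 genes were called, 59.3%, against 25.1% at P2. Of 1443 genes called higher at P2 and tested at E18, 1345 were called higher at E18 too (93.2%, against 29.6% of all genes tested at E18), and 10 were called lower. Of 1673 genes called lower at P2, 1567 were called lower at E18 (93.7%, against 29.7%), and 8 were called higher. Read the other way, these were 33.9% of the 3968 genes higher and 39.4% of the 3982 genes lower at E18. Each age is its own set of libraries, and some genes had very unlike levels in the 2 sets, whatever the sort. The mitochondrial gene mt-Atp8 reached at least 131.8 FPKM in every P2 library and at most 2.753 FPKM at E18. The part of library preparation or counting in differences between the ages was not tested. Where the ages were compared directly, by the interaction of sort with age in 8 libraries, 421 of 13874 genes differed (3.03%). Of these, 306 had a positive difference, the P2 effect minus the E18 effect (2.21%), and 115 a negative one (0.829%). The number was 118 without P2 GFP+ replicate 1, 262 without P2 GFP+ replicate 2, 778 without P2 GFP- replicate 1, 130 and 108 without E18 GFP+ replicates 1 and 2, and 177 and 140 without E18 GFP- replicates 1 and 2.

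For mitosis and DNA replication, limma called 0 of 50 and 0 of 41 genes as different between the ages, with 0 and 1 at an unadjusted p below 0.05, where 3.03% of all genes were called. The median differences were -0.30 and -0.40. Rod phototransduction held 6 of 17 called, all with a negative difference, among them Gngt1, Cnga1, Rcvrn, Guca1a and Gucy2e. Only 10 of the 17 passed the filter in the E18 libraries. Ganglion cell genes held 13 of 32 called, all with a positive difference. Only 22 of the 32 passed the filter in the P2 libraries. Members of either list that passed it at 1 age alone, where they are high in GFP- libraries, had their direction set by that. Pou4f1, a factor of ganglion cells, stood at 0.588 and 0.942 FPKM in P2 GFP+ libraries, against 1.61 and 0.847 FPKM in P2 GFP- libraries, and at 2.66 and 1.87 FPKM in E18 GFP+ libraries, against 59.3 and 63.0 FPKM in E18 GFP- libraries. Only the E18 GFP- libraries were high, and the P2 sorts overlapped. Sox4 and Onecut2 of the neurogenic factors also had a positive difference, and at P2 neither was called between the sorts. Amacrine genes went both ways, with Tfap2a, Slc32a1, C1ql1 and Lamp5 having a negative and Calb2 a positive difference.

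**Figure D5:**
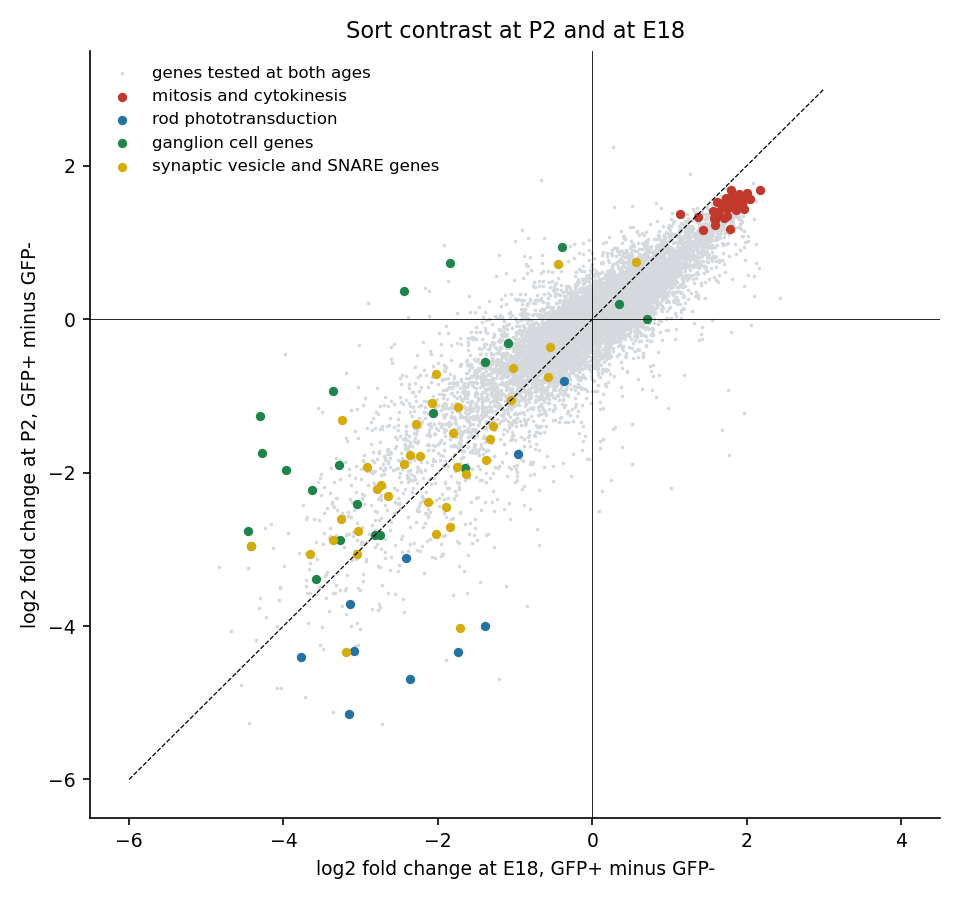
Log2 fold change between GFP+ and GFP- libraries at P2 (y axis) against the same at E18 (x axis), for genes tested at both ages in grey and 4 gene lists in colour. The dashed line marks equal values and Lars2, at 12.3 on the x axis, lies outside the panel. Mitosis genes lie at the upper right, mostly a little below the line, all 10 rod genes tested at both ages lie below it and many ganglion cell genes lie above it.

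Open chromatin at transcript starts was measured at P2 in GFP+ cells only, so it gives no contrast between the sorts. Counts in windows of 200 bp were summed over 10 kb around each start and given as CPM, that is, scaled to the sum of all windows. Libraries 1 and 2 held 71089052 and 31132991 counts, and counts at the start stood 22.8 and 12.2 times above the flanks. At 1396 genes called higher the median was 55.1 and 51.0 CPM, at 1666 genes called lower it was 35.0 and 40.0 CPM, and at 8859 genes tested but not called 49.8 and 46.1 CPM. At 9222 genes below the filter it was 4.74 and 10.8 CPM. Starts of genes called lower were thus covered less than those of the others, but far more than those of genes not measurably expressed. The lists differed widely. Median coverage was 132 and 119 CPM at 18 progenitor transcription factors, 109 and 103 CPM at 21 proneural factors, 50.3 and 41.2 CPM at 49 mitosis genes, 57.9 and 62.7 CPM at 26 amacrine genes, 12.6 and 21.6 CPM at 17 rod phototransduction genes and 7.10 and 13.9 CPM at 12 cone phototransduction genes. Over 10 kb the median of amacrine genes was thus above that of mitosis genes in both libraries, but over the central 2 kb it was below, at 20 and 24.1 CPM against 43.7 and 30.3 CPM. The median RNA of the amacrine genes in GFP+ libraries was 2.61 and 2.72 FPKM, against 51.9 and 70.8 FPKM for the mitosis genes. The difference between rod and other starts was smaller in library 2, where counts stood less far above the flanks. The part of this in the difference was not tested.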

How the data were processed

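RNA and open chromatin were measured by sequencing in GFP-sorted retinal cells of CD1 mice. The labels give the molecule as polyA RNA and name a TruSeq total RNA kit, and the submitters' processing notes name HISAT2, Bowtie2, featureCounts 1.5.3, SAMtools 1.5, Picard 2.10.7, bedtools 2.26.0, mm9 and mm10, with no role given for any. The deposited RNA table holds values per gene that behave as FPKM, a unit inferred from the values, and absolute depth is unknown. The deposited chromatin table holds counts in 200 bp windows around transcript starts (mm9).

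From these, log2(FPKM + 1) was fitted with limma 3.58.1 (R 4.3.3) with an intensity trend, for genes at 1 FPKM or more in 2 or more of the 4 P2 libraries. With 4 libraries, 2 residual degrees of freedom remain, so the estimate of spread leans on all genes. P-values were adjusted over all genes tested by the Benjamini-Hochberg method, and an adjusted p below 0.05 is a call. E18 was fitted alone in the same way, and the interaction of sort with age in 8 libraries. Chromatin counts were divided by the window total and averaged over the transcripts of a gene, with no test. Promoter sequences are RefSeq's on GRCm38.p6, matched by symbol. The statistics were tested on simulated data. Tables and figures were made with Python 3.11.15, pandas 2.3.3, numpy 2.4.6 and matplotlib 3.10.9. The 24 per-sample columns of other ages and files were not used.

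Genes were named by a fixed rule among called genes that do not overlap between sorts and reach a mean of 5 FPKM: the 12 highest and 12 lowest fold changes, the 6 largest FPKM differences each way, the 4 members of each list with the smallest p, the 6 highest and 6 lowest interactions, and 48 preset genes. Further list members, and the promoters shown, were chosen after their values were seen. A few genes that the rule or the lists hold are not reported here. The members and the 41 gene lists were chosen with earlier results of these data known. Alternatives were other pseudocounts, filters, scalings and variance models, more libraries in the fit, the replicate number as a block, and each library left out.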

Additional observations from a re-analysis of the deposited data

Results flagged for a closer look

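The genes given here are among those with the largest differences between P2 and E18 in the effect of the sort, each called by the interaction test in limma. The value is the log2 difference of the P2 effect minus the E18 effect, 2 libraries per sort and age. Each age is its own set of libraries, and the part of preparation or counting in these values was not tested.

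Among genes with a negative value, Cnga1, a channel of rods, had -3.22 (adjusted p = 0.0394) and Lamp5 had -3.48 (adjusted p = 0.0240). Cnga1 stood at 0.468 and 0.248 FPKM in P2 GFP+ libraries, against 6.06 and 23.6 FPKM in P2 GFP- libraries, and did not exceed 0.0661 FPKM at E18. It thus entered the test through the P2 GFP- libraries alone, where it is high. The histone genes Hist1h2ah and Hist1h2al had -3.99 (adjusted p = 0.0040) and -3.54 (adjusted p = 0.00273), and both belong to a family of near-identical copies between which reads may be split. Hist1h2al stood at 6.38 and 5.10 FPKM in P2 GFP+ libraries, against 20.5 and 23.5 FPKM in P2 GFP- libraries. At E18 it stood at 2165 and 3579 FPKM in GFP+ libraries, against 730.7 and 912.9 FPKM in GFP- libraries, so that both sorts were far higher than at P2. Hist1h2ah was listed at 0.128 and 0 FPKM in P2 GFP+ libraries, against 0 and 0 FPKM in P2 GFP- libraries, and so entered the test through the E18 libraries alone. Lars2, a mitochondrial leucyl-tRNA synthetase, had -12.22 (adjusted p = 1.69e-08). It stood at 72.0 and 77.4 FPKM in P2 GFP+ libraries, against 61.2 and 81.6 FPKM in P2 GFP- libraries. At E18 it stood at 5033 and 5031 FPKM in GFP+ libraries and was listed at 0 in both GFP- libraries, where a 0 can be a failed estimate.

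Among genes with a positive value, the ganglion cell genes Pou4f1, Sncg and Irx2 had 3.94 (adjusted p = 0.00215), 3.51 (adjusted p = 0.0189) and 3.21 (adjusted p = 0.00286). Nell2, a secreted protein of neurons, had 3.52 (adjusted p = 0.00273), Mstn, myostatin, had 3.65 (adjusted p = 0.00215) and Megf10, a receptor that spaces amacrine and horizontal cells, had 3.12 (adjusted p = 0.00673). Nell2 stood at 4.0 and 2.29 FPKM in P2 GFP+ libraries, against 4.11 and 5.07 FPKM in P2 GFP- libraries. At E18 it stood at 2.78 and 3.22 FPKM in GFP+ libraries, against 55.3 and 69.2 FPKM in GFP- libraries. For these genes the E18 GFP- libraries stood above every other library. Pou4f1, Sncg, Irx2 and Mstn did not reach 1 FPKM in 2 P2 libraries and so entered the test through the E18 libraries alone.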

How the results depend on the processing

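No call at P2 changed sign under the other scalings and pseudocounts or with a library left out. The other fits leave the fold change of a gene as it was, so its sign could not turn there. The number of calls did not hold. Against 1462 genes higher and 1767 lower, with 222 and 227 list members, the fit without a filter on low values called 461 genes and 71 list members higher. A fit on all 12 RNA libraries called 24 higher and 224 lower, with 3 and 54 list members, and one on 8 libraries called 2304 higher. With each library left out in turn, the counts ran from 227 to 1224 higher and from 811 to 2152 lower, with 54 to 207 list members higher and 158 to 241 lower. Deviations of equally numbered libraries from their group means had r = -0.588 at P2 and 0.129 at E18. These values cannot decide whether the replicate numbers pair the samples, and the labels do not say. A fit with the replicate block called 58 higher and 494 lower, with 13 and 110 list members. A crossed replicate block, chosen after seeing the data, called 2842 higher and 2905 lower, with 366 list members higher. Of 54 counts of list members called, 51 moved by over 1.5 times in the fit on all 12 libraries, 48 with the replicate block, 31 with no filter, 12 under quantile scaling, 8 under median-of-ratios scaling and 10 with the totals without abundant genes. For the difference between ages, 421 genes became 92 with a pseudocount of 0.1, 273 with a filter at 5 FPKM, 46 with the replicate block and 955 with the crossed one, and 108 to 778 with a library left out. Over the central 2 kb the chromatin ratio of higher over lower genes was 1.84 and 1.55, against 1.57 and 1.27 over 10 kb. On the gene strand alone, CCAAT was in 47.6% of mitosis promoters, against 21.1% of all, and TAATCC in 16.7% of rod promoters, against 3.38% of all. Of the genes named but not called at P2, Stmn1 had -0.11 under quantile scaling, and single libraries turned the sign of 6. Their values with each library left out in turn ran from -0.328 to 1.37 for Atoh7, from -0.63 to 0.0492 for Otx2, from -0.0788 to 0.37 for Cd68, from -0.13 to 0.28 for Lars2, from -0.27 to 0.68 for Megf10 and from -0.0403 to 0.24 for Stmn1. The cause of these changes was not tested. Absolute depth is unknown, so no limit from it is given.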
